A study of Mus musculus
Mus spretus with 18 samples.

Results

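Ptprc and 7 further genes of lymphocyte signalling were followed in F1 mice from female C57BL/6J (a standard laboratory strain) and male SPRET/EiJ, which derives from another species, Mus spretus. The 8 genes were chosen by name: Ptprc, Ikzf1, Ikzf3, Fyn, Lyn, Tcf7, Cd79b and Cd6, out of 38924 genes in the expression table. Every F1 cell carries 1 allele of each strain in the same nucleus. Messenger RNA was sequenced in 18 libraries: cerebral cortex, heart, kidney, lung, spleen and liver of mice aged 8 weeks, embryonic stem cells (ESC) from 2 clones, and fibroblasts kept for 4 h in 0.1 μM pladienolide B, an inhibitor of the spliceosome, or in the same amount of its solvent DMSO. Each of the 9 groups held 2 replicates. The labels of the liver libraries name strains C57BL/7J and C57BL/8J in place of C57BL/6J, and these libraries serve here only for levels and for comparison. Whole organs were used, so all cell types of an organ are mixed in a library, and fewer cells of a type cannot be told apart from less RNA in each cell.

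Lymphocytes read antigen through receptors that have no catalytic activity of their own. The B cell receptor signals through CD79A and CD79B, and the T cell receptor through CD3 chains, by way of Src family kinases such as Lyn and Fyn. The phosphatase CD45, encoded by Ptprc, sets how active those kinases are. CD45 is also a textbook case of alternative splicing: the exons A, B and C code for parts of its outer domain that are included or skipped differently in B cells, in naive and in activated T cells. Ikzf1 (Ikaros), Ikzf3 (Aiolos) and Tcf7 (TCF-1) are transcription factors of lymphoid cells, several of which exist in forms with and without parts of the protein, and CD6 is a T cell surface receptor that modulates signalling.

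A skipped exon (SE) event is 1 alternative exon between 2 given flanking exons, and the percent spliced in (PSI) is the share, from 0 to 1, of transcripts that include it, computed from junction reads for inclusion and skipping after division by the effective length of each form. The table of all reads listed 71 SE events of the 8 genes among 35426 in spleen, and 28 among 35642 in lung. At least 20 junction reads in both replicates were found for 70 of these events in spleen and 26 in lung. Only 1 event missed this limit in spleen, a 183-bp Lyn exon with 62 and 13 reads, and 2 missed it in lung, both in Ptprc, where the lower replicate had 12 and 13 reads. The weakest events that passed had at least 83 reads in spleen and 46 in lung. In spleen the events belonged to Ptprc (24), Lyn (12), Ikzf1 (11), Ikzf3 (7), Cd6 (6), Tcf7 (4), Fyn (3) and Cd79b (3), while in lung no Ikzf3 event was listed.

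The 71 events that passed in either organ involved 45 exons, since several events can share an exon and differ in the exons around it. For 37 of the 45, the event with the most reads had a mean PSI below 0.1 or above 0.9 wherever it was measured in spleen, in lung and on either allele there. In spleen these exons had PSI values from 0.955 to 1 in Ptprc (10 exons), 0.976 to 1 in Ikzf3 (5), 0.965 to 1 in Lyn (6), 0.987 to 1 in Tcf7 (3), 0.992 to 1 in Cd79b (3), 0.992 to 1 in Cd6 (2) and 0.94 to 0.993 in Fyn (2). Ikzf1 held the single mostly skipped exon, of 60 bp, at 0.0252 and 0.044 in spleen and 0.0248 and 0 in lung. The remaining 8 exons lay in Ptprc, Ikzf1, Tcf7, Fyn and Cd6, and the length of each of the 8 was a multiple of 3, as was that of 34 of all 45. None of the described exons was in Ikzf3, Lyn or Cd79b.

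Ptprc (ENSMUSG00000026395) lies on the minus strand of chromosome 1, from 138062859 to 138175756 in mm10. Its variable exons follow a constant 24-bp exon at chr1:138126303-138126326 in the order A (129 bp, chr1:138122456-138122584), B (147 bp, chr1:138120020-138120166) and C (141 bp, chr1:138117754-138117894). A 72-bp exon at chr1:138116954-138117025 comes next. In spleen, exon A between the 24-bp exon and exon B had PSI values of 0.751 and 0.694, from 2585 and 2976 reads. Exon C between exon B and the 72-bp exon stood at 0.869 and 0.863. Exon B was nearly always present once its neighbours A and C were spliced in, with PSI values of 1 and 0.955.

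The reads of these events can be resolved into single junctions, which show to which exon the 24-bp exon was joined. This view, like the other Ptprc events with the same exons, was chosen after the values had been seen, and it carries no test. In spleen the 24-bp exon was joined to exon A by 1074 of 1938 junction reads in replicate 1 (55.4%, with an exact 95% interval of 53.2% to 57.6%) and by 1244 of 2411 in replicate 2 (51.6%, 49.6% to 53.6%). It was joined straight to exon B in 18.9% and 22.3% of reads. In 21.7% and 21% all 3 variable exons were left out and the 72-bp exon followed, the junction of the short CD45RO form. Exon C was joined directly by 8 and 4 reads, and the exon after the 72-bp exon by 68 and 120. After exon A, 99.9% and 94.2% of reads continued to exon B, and after exon B, 85.5% and 85.6% continued to exon C. These shares show that exon B, once reached, was mostly followed by exon C. Such intervals cover counting error only, since reads without molecular tags are not independent molecules.

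The alleles of Ptprc differed in this choice. On the C57BL/6J allele, exon A was joined by 60% and 55.8% of the junction reads leaving the 24-bp exon, and on the SPRET/EiJ allele by 46% and 43.5%. Exon B was joined directly by 12.4% and 18.5% on the C57BL/6J allele and by 29.7% and 30.4% on the SPRET/EiJ allele. For both junctions the 2 replicates of one allele lay clear of the 2 of the other. The junction that leaves out all 3 exons took 21.6% and 18.7% on C57BL/6J and 22% and 22.5% on SPRET/EiJ, a gap of about the size of the replicate spread. The junction that also leaves out the 72-bp exon took 5.07% and 6.97% on C57BL/6J against 2.27% and 3.19% on SPRET/EiJ.

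**Figure D1:**
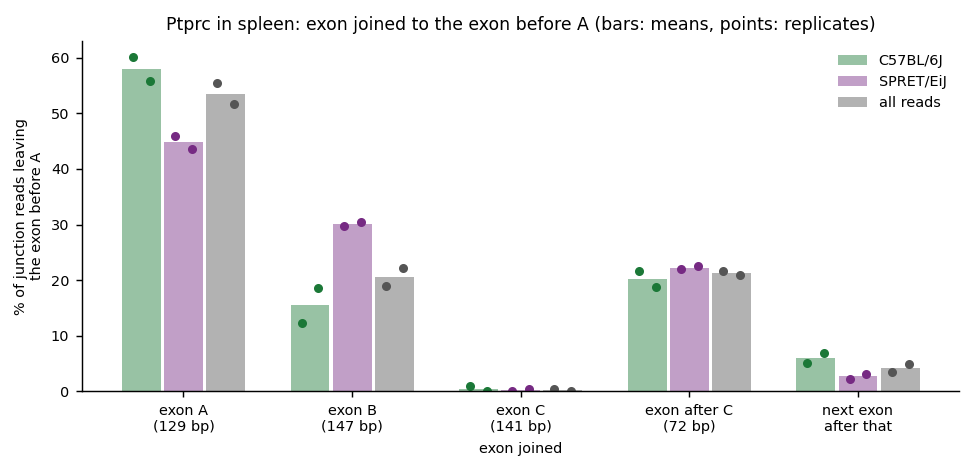
Share of the Ptprc junction reads leaving the 24-bp exon before exon A (vertical axis, %) that join each of 5 exons in spleen, for the C57BL/6J allele, the SPRET/EiJ allele and all reads. Bars are means and points the 2 replicates: exon A takes a mean of 57.9% on the C57BL/6J and 44.8% on the SPRET/EiJ allele, and exon B 15.5% and 30.1%.

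The allelic PSI of SE events was tested with a quasi-binomial model over all 21726 autosomal events in spleen with 20 reads per allele and replicate, with Benjamini-Hochberg adjustment, and an event was called at an adjusted p under 0.05 and a |ΔPSI| of at least 0.1. Among all tested events 2.09% were called. Of the 61 events of the 8 genes, 2 were called, and both involve the Ptprc exons A and B. Exon A, between the 24-bp exon and exon B, had a PSI of 0.843 and 0.766 on the C57BL/6J allele and of 0.634 and 0.588 on the SPRET/EiJ allele. Inclusion was higher on the C57BL/6J allele by 0.193 (SE 0.0336, adjusted p = 0.00773 by the quasi-binomial test). Exon B, taken between the 24-bp exon and the exon after the 72-bp exon, went the other way, with 0.55 and 0.571 on C57BL/6J and 0.869 and 0.828 on SPRET/EiJ. Here the difference was -0.288 (SE 0.0531, adjusted p = 0.0096), and the replicates of the alleles did not overlap. In all reads this event had 370 and 540 inclusion reads, and the junction from the 24-bp exon to exon B held 367 and 537. The event therefore mainly set that junction against the one from the 24-bp exon to the exon after the 72-bp exon.

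These calls are not independent, because the reads that join the 24-bp exon to exon B count as skipping of A in the former event and as inclusion of B in the latter. The size of the difference also depends on the flanking exons. Against the junction that leaves out all 3 variable exons, exon A reached a mean of 0.591 on C57BL/6J and 0.502 on SPRET/EiJ (ΔPSI 0.0892 ± 0.0365 SE, adjusted p = 0.34). Against the same junction, exon B stood at 0.378 and 0.473 (ΔPSI -0.0956 ± 0.0411 SE, adjusted p = 0.47). Neither of these was called. Exon C differed little between the alleles in the event with most reads, with 0.817 and 0.798 on C57BL/6J against 0.757 and 0.803 on SPRET/EiJ (adjusted p = 0.717).

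The alleles of 1 library share an animal and a preparation, so the test was repeated with the library as a replicate block. Blocking called 1 more event, the 72-bp Ptprc exon between the 24-bp exon and the exon that follows it. Its PSI was 0.845 and 0.774 on C57BL/6J and 0.925 and 0.904 on SPRET/EiJ, a difference of -0.104 (adjusted p = 0.0126 with the replicate block, 0.191 without). The values of the alleles did not overlap, with 0.845 the highest on one and 0.904 the lowest on the other. In all reads, however, this exon was at 0.958 and 0.939, above both alleles in each replicate. Its mean PSI was 0.0855 higher in all reads than in allelic reads.

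How many reads could be given to an allele differed between junctions. Of the reads joining the 24-bp exon to exon A, 85.1% and 87.3% were assigned, against 100% and 99.8% of those joining it to exon B. The junction out of exon C was assigned for only 12.4% and 11.8% of reads, and the PSI of exon C between the 24-bp and the 72-bp exon was 0.441 higher in all reads than in allelic reads. Such a gap of over 0.1 was found for 3 of the 61 events of the 8 genes (2.32% of all tested events), in Ptprc, Ikzf1 and Cd6, and for neither called event. The part of read assignment in the allelic differences was not tested.

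Of the 61 events, 46 had a mean PSI above 0.9 on both alleles, and 50 differed between the alleles by less than 0.05. The median |ΔPSI| was 0.00818, against 0.0127 over all tested events. Outside Ptprc, a 123-bp exon of Ikzf1 came closest to a call. It lies at chr11:11758195-11758317 in a gene spanning 11684962 to 11772930, and its PSI was 0.949 and 0.948 on C57BL/6J and 0.879 and 0.848 on SPRET/EiJ. The difference of 0.0849 (SE 0.0185) passed the p limit (adjusted p = 0.0217 by the quasi-binomial test) and missed the size limit. With the form of the prior that was used first, it did not pass the p limit either (adjusted p = 0.0607). With the replicate block the quasi-binomial adjusted p was 1.23e-07, and the size limit was still missed. In lung, with 97 to 126 reads per allele, the same exon stood at 0.865 and 0.879 on C57BL/6J and 0.8 and 0.938 on SPRET/EiJ, and these ranges overlapped.

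**Figure D2:**
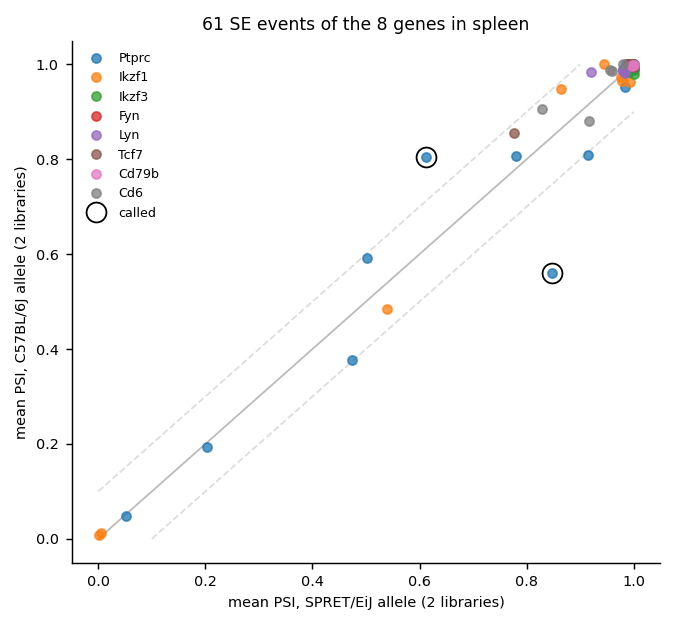
Mean PSI on the SPRET/EiJ allele (horizontal axis) against the C57BL/6J allele (vertical axis) for the 61 SE events of the 8 genes tested in spleen, with 1 colour per gene. The solid line marks equal PSI and the broken lines a difference of 0.1; rings mark the 2 called events, Ptprc exon A at 0.611 and 0.805 and exon B at 0.848 and 0.56.

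Tcf7 had higher inclusion values on the C57BL/6J allele in both organs, and neither difference was called. Its 93-bp exon lies at chr11:52258853-52258945. In spleen the PSI was 0.84 and 0.873 on C57BL/6J and 0.767 and 0.785 on SPRET/EiJ, a difference of 0.0805 (SE 0.0298, adjusted p = 0.3). With the replicate block the quasi-binomial adjusted p in spleen was 0.0421, and the size limit was still missed. In lung the PSI was 0.357 and 0.443 on C57BL/6J and 0.345 and 0.288 on SPRET/EiJ, a difference of 0.0832 (SE 0.0531, adjusted p = 0.628). The lung difference was 0.155 without replicate 1 and 0.0115 without replicate 2. The replicates of the alleles did not overlap in either organ.

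Cd6 and the large Ikzf1 exon showed no called allelic difference. The 303-bp exon of Cd6 (chr19:10797676-10797978) had PSI values of 0.877 and 0.934 on C57BL/6J and 0.849 and 0.807 on SPRET/EiJ (ΔPSI 0.0774 ± 0.0506 SE, adjusted p = 0.666). The 117-bp exon of Cd6 (chr19:10792828-10792944) had 0.875 and 0.886 against 0.918 and 0.914. The 261-bp exon of Ikzf1 (chr11:11748311-11748571) had 0.488 and 0.481 against 0.502 and 0.577. Both of the latter exons are among those for which allelic and all reads disagreed, since all reads gave 0.771 and 0.814 for the Cd6 exon and 0.672 and 0.68 for the Ikzf1 exon.

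In lung 18 events of 7 genes could be tested by allele, with a median of 168 reads, against 760 in spleen. Of all 22047 tested events, 2.06% were called by the quasi-binomial test and 2670 had an unadjusted p under 0.05. None of the 18 was called, and none had an unadjusted p under 0.05. The widest difference was that of the 117-bp Cd6 exon, at 0.76 and 0.906 on C57BL/6J and 0.957 and 1 on SPRET/EiJ (ΔPSI -0.145 ± 0.0876 SE, adjusted p = 0.609). Neither Ptprc event called in spleen was among those tested in lung, where only the 72-bp exon was. The allelic difference itself was compared between the organs for 17 events, and the share called was 0% of 12550 events and 0 of the 17. An unadjusted p under 0.05 was found for 364 of the 12550 events and for none of the 17. For the Ikzf1 123-bp exon the allelic difference was 0.0818 larger in spleen than in lung, with an SE of 0.076. In simulated data with these depths, shifts were made in the inclusion share of junction reads, before division by form length. There the interaction test found 9% of shifts of 0.15 and 61% of shifts of 0.3.

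Between spleen and lung, the exons of Tcf7, Fyn and Ptprc differed. All reads allowed 25 events of 7 genes to be compared, and 3 were called, where 2.53% of all 19675 tested events were. The 93-bp exon of Tcf7 had PSI values of 0.743 and 0.784 in spleen and 0.263 and 0.283 in lung, and spleen was higher by 0.491 (SE 0.0276, adjusted p = 8.57e-09 by the quasi-binomial test). Elsewhere the values were 0.394 and 0.439 in heart, 0.223 and 0.265 in cortex, 0.217 and 0.167 in liver, and 0.135 and 0.101 in ESC, the heart values resting on 23 and 41 reads. Both spleen values lay above those of each other measured tissue. Against cortex the difference was 0.519 (SE 0.0701, adjusted p = 0.000296).

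Ptprc also differed between the organs in exon B. Between the 24-bp and the 72-bp exon, exon B had PSI values of 0.409 and 0.439 in spleen, from 1003 and 1297 reads, and of 0.109 and 0.15 in lung, from 51 and 46 reads. The difference of 0.294 (SE 0.049, adjusted p = 0.0153) depended on both lung libraries, with adjusted p-values of 0.232 without lung replicate 1 and 0.0642 without lung replicate 2. In kidney, where this exon B event also passed the read limit, its PSI was 0.05 and 0.183, from 21 and 42 reads. The 72-bp exon between the 24-bp exon and the exon after it was at 0.958 and 0.939 in spleen and 0.806 and 0.84 in lung, which did not pass the test (adjusted p = 0.193). Without spleen replicate 2 this exon was called, at a difference of 0.135 (quasi-binomial adjusted p = 0.0418).

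Fyn (chromosome 10, 39369743 to 39565381) carries a pair of exons used in place of each other, which code for alternative versions of the stretch from the SH2 to the kinase domain in the brain form and the T cell form of the protein. The first, of 165 bp, lies at chr10:39529437-39529601, and the second, of 156 bp, at chr10:39529919-39530074. Each was listed as an event between the same flanking exons, against reads that skip both. The 165-bp exon had a PSI of 0.686 and 0.802 in spleen and of 0.954 and 0.964 in lung, lower in spleen by 0.215 (ΔPSI -0.215 ± 0.0395 SE, adjusted p = 0.000382). Against cortex, with 0.994 and 0.993, the difference was -0.249 (SE 0.0365, adjusted p = 1.89e-06). PSI in heart, kidney and ESC lay between 0.944 and 0.977.

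The PSI of such a pair understates the choice between its exons, because reads of the partner enter neither side. Counted against each other, the 165-bp exon took 284 of its 2323 shared inclusion reads in spleen replicate 1 and 268 of 2301 in replicate 2, that is 12.2% (exact 95% interval 10.9% to 13.6%) and 11.6% (10.4% to 13%). In cortex it took 95.9% (95.2% to 96.6%) and 96.3% (95.5% to 96.9%), and in kidney 88.9% (85% to 92.1%) and 84.7% (80.6% to 88.3%). Spleen reads came mainly from the 156-bp exon, and cortex and kidney reads mainly from the 165-bp exon. In lung, heart and ESC the 156-bp event was not among the events used, and the share was not computed. The level of Fyn was 88.3 and 76.6 TPM (transcripts scaled to a common total per library) in spleen and 96.2 and 97 in cortex. No allele could be read for this pair, since only 7 and 1 spleen reads of the 165-bp exon and 2 and 7 of the 156-bp exon were given to either allele.

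**Figure D3:**
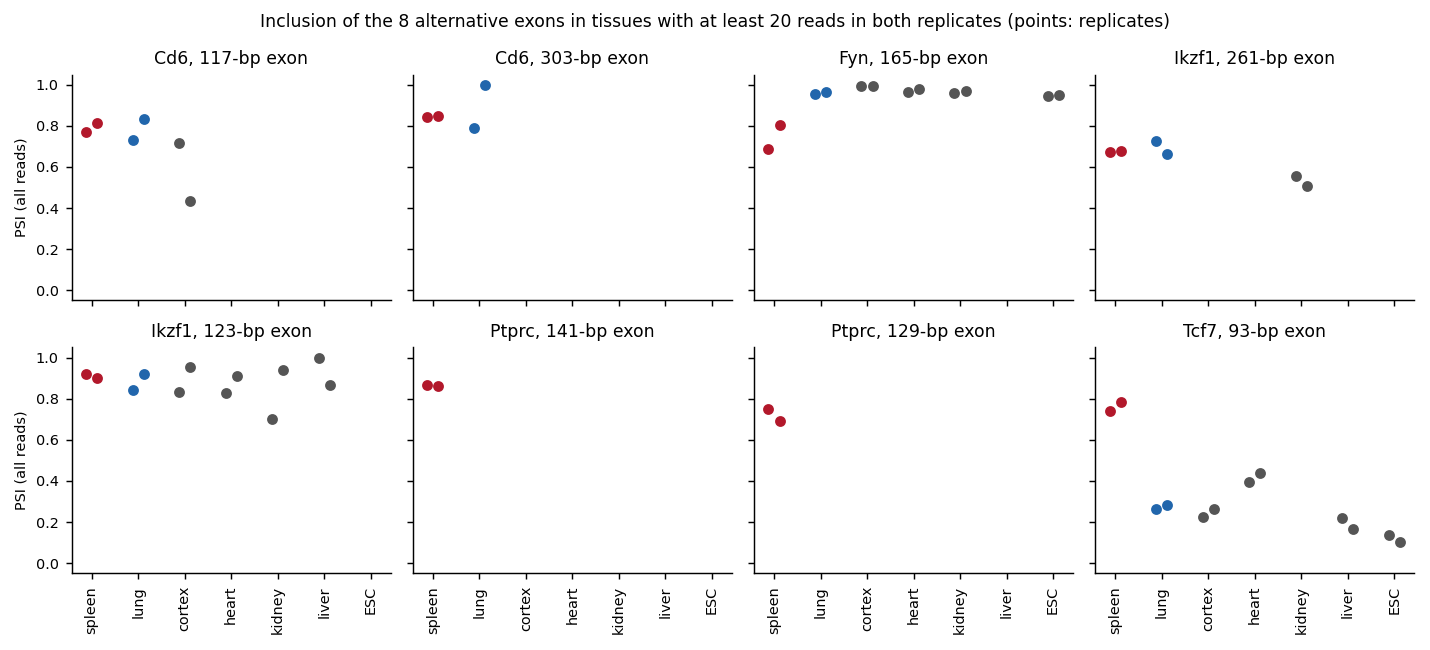
PSI from all reads (vertical axes, 0 to 1) of the 8 alternative exons described one by one, in each tissue with at least 20 reads in both replicates, with 1 point per replicate. The Tcf7 exon is at 0.743 and 0.784 in spleen and at or below 0.439 in each other measured tissue, and the Fyn exon is at 0.686 and 0.802 in spleen and at or above 0.944 elsewhere.

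Lyn (chromosome 4, 3678068 to 3791612) had no exon between 0.1 and 0.9 in mean PSI in spleen or lung, but its tables held 2 forms of 1 exon that begin at the same base, of 74 bp (chr4:3738725-3738798) and 137 bp (chr4:3738725-3738861). They correspond to the LynB and LynA proteins, which differ by a short stretch near the amino end. This comparison was also chosen after the values had been seen. The reads leaving the exon came from the longer form in 65.6% (exact 95% interval 63% to 68.1%) and 67.4% (65% to 69.7%) in spleen. In lung the longer form took 68.6% (65.2% to 71.9%) and 68.5% (65% to 71.8%), and the intervals of the organs overlapped.

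No allelic share of the Lyn forms is drawn from these reads. Of the allelic reads that enter the exon, 57.3% and 55.5% were from C57BL/6J in spleen, but of those that leave it, 88.4% and 86.6% were. The same held in lung, with 57.9% and 55.7% entering and 88.1% and 90.8% leaving. These shares of one exon differ by far more than its replicates do. Among all tested events in spleen, the median share of C57BL/6J reads was 50.5% and 50.4%. By gene the medians over its events ran from 44.9% and 42.5% in Fyn, with 1 event, to 58.4% and 59.1% in Ikzf3, with 6, and Ptprc, with 22 events, was at 49% in both replicates.

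**Figure D4:**
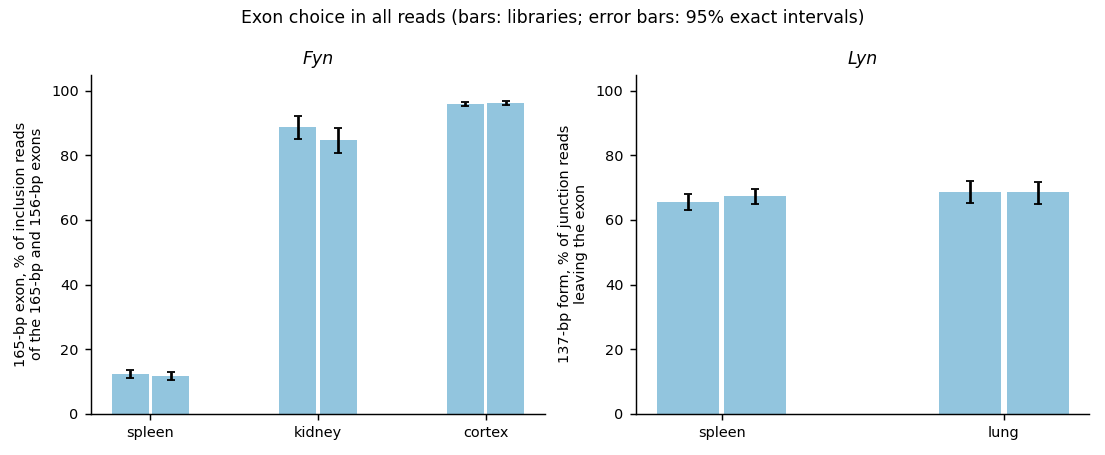
Left, the 165-bp exon of Fyn as a percentage of the inclusion reads of the 165-bp and 156-bp exons in spleen, kidney and cortex. Right, the 137-bp form of the Lyn exon as a percentage of junction reads leaving it in spleen and lung, with 1 bar per library and exact 95% intervals: spleen is at 12.2% and 11.6% for Fyn while cortex is at 95.9% and 96.3%, and all 4 Lyn values lie between 65.6% and 68.6%.

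The 4 described exons of Cd6 and Ikzf1 did not separate spleen from lung. Exons A and C of Ptprc were not compared, since their lung events missed the read limit, with 13 and 18 reads and 32 and 12 reads. The 117-bp Cd6 exon was at 0.771 and 0.814 in spleen and 0.731 and 0.835 in lung, and the 303-bp Cd6 exon at 0.842 and 0.848 in spleen and 0.791 and 1 in lung. The Ikzf1 261-bp exon was at 0.672 and 0.68 in spleen and 0.729 and 0.665 in lung, and the 123-bp exon at 0.919 and 0.902 against 0.841 and 0.92. In each of these 4 the lung replicates enclosed the spleen values. The 261-bp exon of Ikzf1 was also measured in kidney, at 0.556 and 0.509. Against cortex, 11 events of 5 genes were tested and 2 were called, the Fyn 165-bp and the Tcf7 exon above, beside 12.4% of all 17827 tested events. The longer cortex reads had been trimmed to the length of the spleen reads.

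Among the 7 tissues, 7 of the 8 genes had their highest level in spleen, and Fyn in cortex. The share of all genes with their highest level in spleen was not computed. Ptprc stood at 382 and 347 TPM in spleen and at 21.8 and 26.1 in lung. It fell to between 1.96 and 5.24 in cortex, heart, kidney and liver, and to 0.022 and 0.0106 in ESC. In the order of levels, kidney overlapped heart and heart overlapped liver, and no other neighbours did. In fibroblasts 3 of the 4 libraries listed it at 0.

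The other genes followed with different spreads. Cd79b had 1490 and 891 TPM in spleen and 32.3 and 19 in lung. Ikzf1 had 189 and 171 against 10.3 and 11.4, and its relative Ikzf3 49.2 and 51.3 against 0.926 and 1.03. Cd6 had 60 and 41.9 against 2.79 and 3.36. Tcf7, at 265 and 201 in spleen and 49.8 and 48.8 in lung, was also expressed in ESC, at 55.8 and 66.1. Lyn had 178 and 158 in spleen, 64.1 and 69.9 in lung and 12.8 to 14.6 in heart, kidney and liver. For all of these, both spleen libraries lay above both lung libraries. The share of all genes with such a separation was not computed.

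Of the 21925 genes tested with limma on log2(TPM + 0.1), 20.5% were called higher in spleen than in lung at an adjusted p under 0.05 and a log2 difference of at least 1, and 7 of the 8 genes were among them. On this scale Ikzf3 was higher in spleen by 5.55 (SE 0.24, adjusted p = 6.52e-08) and Cd79b by 5.53 (SE 0.42, adjusted p = 2.47e-06). Ikzf1 (4.04), Cd6 (3.99) and Ptprc (3.93) were close together, followed by Tcf7 (2.22) and Lyn (1.32). Fyn was higher in spleen by 0.94 (SE 0.24, limma adjusted p = 0.00621), short of the size limit. Without spleen replicate 2 it was called, at 1.04 (adjusted p = 0.018). Against the mean of the 6 other tissues 26.7% of all genes were called higher in spleen, and all 8 genes were, from Fyn at 1.77 to Cd79b at 8.91.

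**Figure D5:**
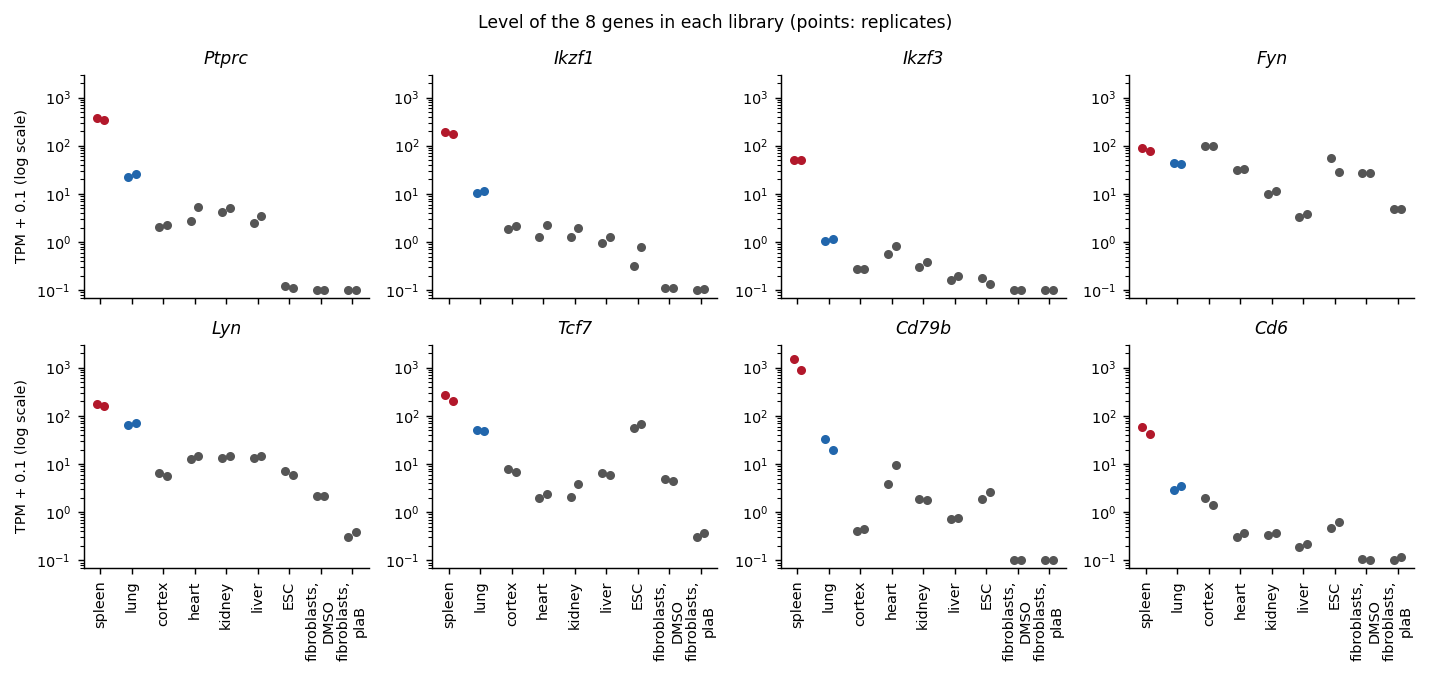
Level of each of the 8 genes (vertical axes, TPM + 0.1 on a log scale) in the 14 tissue libraries and 4 fibroblast libraries, with 1 point per replicate. Spleen is highest for every gene except Fyn, for which cortex is at 96.2 and 97 TPM against 88.3 and 76.6 in spleen.

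The spleen libraries held the RNA of lymphocytes, as markers showed. Summed over 4 B cell markers (Cd79a, Ms4a1, Cr2, Pax5), the level was 2467 and 1622 TPM in spleen and 67.1 and 45.2 in lung. Over 5 T cell markers (Cd3d, Cd3e, Cd3g, Cd4, Cd8a) it was 646 and 473 against 35.4 and 44.7. The T cell sum was also 13 and 129 in ESC, where Ptprc stood at 0.022 and 0.0106. Red cell precursor markers (4 genes) went the other way between the spleen replicates, at 106 in replicate 1 and 425 in replicate 2, and 7 markers of monocytes, macrophages and granulocytes were at 2511 and 3196 in spleen and 4905 and 6379 in lung. The 4 lung epithelium markers summed to 206489 and 190620 TPM in lung and 144 and 98.7 in spleen. None of these markers was at 0 in both libraries of spleen or of lung. The B and T cell sums were higher in spleen than in lung, as were the gene levels and inclusion of the Tcf7 exon and Ptprc exon B. Inclusion of the Fyn exon was lower in spleen. The part of cell composition in these differences was not tested. Neuron (4 genes), cardiomyocyte (3), kidney tubule (3), hepatocyte (3) and pluripotent cell (3) markers summed to at most 0.276 for pluripotent cells, 0.203 for kidney tubule, 2.26 for neurons, 6.74 for hepatocytes and 31.8 for cardiomyocytes in a spleen library. Cortex, heart, kidney, liver and ESC each held their own markers, at 1714 and 1791 TPM for neurons, 47364 and 47731 for cardiomyocytes, 9934 and 9628 for kidney tubule, 104174 and 123356 for hepatocytes and 2628 and 2669 for pluripotent cells. Fibroblast (4), endothelium (4), natural killer cell (4) and microglia (3) markers were at 255 and 234, 184 and 144, 115 and 150, and 42.2 and 49.8 TPM in spleen. In lung these sets were at 720 and 800, 1640 and 1750, 43.6 and 54.8, and 118 and 138. The microglia set was lower in cortex than in lung, at 96.7 and 92.7.

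Other genes of these pathways were counted from lists. Beside the 20.5% of all genes called higher in spleen than in lung, 22% were called lower. All 17 genes of B cell receptor signalling and B cell identity were called higher, with a median log2 difference of 4.62 where the median over all genes was 0.0694. Cd79a, the partner of Cd79b, had 1511 and 907 TPM in spleen, and the B cell surface protein Ms4a1 (CD20) had 593 and 481. Of 20 genes of T cell receptor signalling and T cell identity, 19 were higher and 1 lower in spleen, with a median of 3.61. The adaptor Lat had 250 and 161 TPM in spleen, and the kinase Lck, which CD45 acts on in T cells, 195 and 138. The gene that was lower was Gata3, at 6.07 and 4.3 in spleen and 19 and 18.2 in lung. Among 12 Src family kinases and regulators, 6 were higher and 2 lower, with a median of 1.26. The phosphatase Ptpn6 (SHP-1), which counters receptor signals, was higher by 3.64, at 624 and 476 TPM, and Csk, which phosphorylates the inhibitory site that CD45 clears, was higher by 2.04, at 422 and 335. The kinases Src and Yes1 were the lower pair, at -1.96 and -1.95.

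None of 4 RNA-binding proteins known to repress the variable exons of CD45 was called between spleen and lung, where 42.5% of all genes were called in either direction, although all 4 had an adjusted p under 0.05 by limma. Hnrnpll had 5.86 and 7.9 TPM in spleen and 11.4 and 11.2 in lung, a log2 difference of -0.72 (SE 0.13). Hnrnpl had 186 and 165 against 127 and 123, Ptbp1 195 and 194 against 150 and 158, and Sfpq 143 and 152 against 73.1 and 77.6.

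Across the 14 tissue libraries, the genes with levels most like that of Ptprc were Clec4a2 (r = 0.998), Xcl1 (0.994), Ncf4 (0.994), Ms4a6b (0.993) and Hcls1 (0.993), out of 21925. These are Pearson correlations of log2(TPM + 0.1) over libraries that share 7 tissues in pairs, and they are given as a description. Within the set, Ikzf1 (r = 0.937), Lyn (0.913) and Ikzf3 (0.891) followed Ptprc most closely. Cd79b (0.805) and Cd6 (0.767) came next, and Tcf7 (0.386) and Fyn (0.235), which are also expressed in ESC and in cortex, the least.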

How the data were processed

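Junction reads of skipped exons were analysed in 14 tissue libraries, and levels in 18. The authors aligned reads with HISAT2 2.0.1 to the genomes of both strains (mm10 coordinates), decided the allele of a read by the lower number of edits, and counted junctions with rMATS on Ensembl 74. The deposited cells list the raw count of both replicates, and the deposited form lengths are scores written by rMATS. The deposited levels are TPM, made by the authors with featureCounts. Columns with the authors' own p-values, FDR and inclusion differences were not used. Replicates were named by list position. The first allelic column was taken as C57BL/6J, since in lung the maternally expressed Meg3 had 4490 reads there and 7 in the other column.

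The 8 genes and all lists were chosen with earlier results of these data known. An exon was described one by one where the mean PSI of its deepest event lay between 0.1 and 0.9 in spleen, in lung or on an allele; the 5 genes most like Ptprc and the up to 4 genes of a list highest in spleen were also named by rule, and Gata3, Src and Yes1 after their values were seen. One gene of the B cell lists is not reported here and was left out of their counts and sums. Where the table held a symbol on 2 rows (Cr2, Ebf1), the higher one was used. PSI was tested with a quasi-binomial logistic model, with dispersions of at least 1 moderated by limma 3.58.1 toward a depth trend, fitted on autosomal events with 20 reads in each library and arm. The prior used events with at least 3 fitted reads for each form. This replaced a form over events with an inclusion share of 0.05 to 0.95 after the results of the latter had been seen; the member calls were the same in number under both. Genes with a TPM of 1 in at least 2 libraries were tested with limma. P-values were adjusted by the Benjamini-Hochberg method (FDR 0.05). Ensembl gene identifiers come from the table, and gene bounds from RefSeq (GRCm38). The software was R 4.3.3 and Python 3.11.15.

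In simulated data, shifts were made in the inclusion share of junction reads, before division by form length, and not in PSI. The allelic model found 20% of shifts of 0.15 and 90% of shifts of 0.3 in spleen, and 23% and 86% in lung. The comparison of spleen with lung found 39% and 95%. For TPM, 70% of log2 changes of 1.5 and 92% of changes of 2.5 were found. Junction reads summed over events ranged from 46558287 to 129496306 per library. Both alleles come from the same library, and replicate differences of the alleles were correlated (r = 0.131 in spleen, 0.121 in lung), so blocked values are given where they change a call. Spleen and lung were taken from the same 2 mice, but which library is of which mouse is not given in the sources used here, and replicate differences of same-numbered libraries were barely correlated (r = 0.00453), so the comparison was not blocked. P-values measure only the spread between 2 samples a group.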

Additional observations from a re-analysis of the deposited data

How the results depend on the processing

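With 2 samples a group, PSI tests rest on dispersions shared across events, and most lung events have few reads. Under the other minimum read numbers, priors, the replicate block and the filters, the member counts stayed within 1.5 times of those reported, except against cortex, where the 2 calls became 4 with a minimum of 10 reads, 1 with a minimum of 50 and 2 to 4 when a library was left out. The added calls were the Cd6 303-bp and Ikzf1 261-bp exons with 10 reads, the Cd6 96-bp and Fyn 156-bp exons without spleen replicate 1, and the Cd6 303-bp exon without cortex replicate 2. Between spleen and lung the 3 calls became 2 to 4 when a library was left out. With a minimum of 10 reads the allelic test in spleen also called a 46-bp Lyn exon. It was at 0.958 and 0.983 on C57BL/6J and 0.0649 and 0 on SPRET/EiJ, where the SPRET/EiJ reads numbered 10 and 12. Other events of this exon had it mostly included on SPRET/EiJ and were not called. There its PSI was 1 and 1 (108 and 147 reads) after the shorter Lyn form, and 0.842 and 1 (57 and 56 reads) after the longer. Of the allelic reads leaving these forms, 88.4% and 86.6% were from C57BL/6J. The part of read assignment in this call was not tested. The Ptprc calls between alleles kept their direction and side of the threshold under every alternative with a test. Without 1 replicate, which allows no test there, exon A differed by 0.178 to 0.209 and exon B by -0.319 to -0.257.

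The sign turned in differences that were not called. Between the alleles, where leaving out a replicate allows no test, these were exon C of Ptprc in spleen (-0.00419 without replicate 1) and in lung the Ikzf1 261-bp (-0.133 without replicate 2) and 123-bp exons (-0.0592 without replicate 1). Between spleen and lung these were the Cd6 117-bp exon (-0.0123 without spleen replicate 2, and -0.0422 to 0.0614 over the libraries left out), the Cd6 303-bp exon (-0.155 to 0.0542, the latter without lung replicate 2) and, without lung replicate 1, the Ikzf1 261-bp (0.0109, range -0.0527 to 0.0109) and 123-bp (-0.00941, range -0.00941 to 0.0695) exons. Against cortex the Ikzf1 123-bp exon turned to -0.0456 without cortex replicate 1 (0.0775 without replicate 2). In the interaction the Tcf7 exon turned to 0.00487 without spleen replicate 1 and 0.069 without lung replicate 2 (lowest -0.0744), and the Ikzf1 261-bp exon to 0.0784 without lung replicate 2 (lowest -0.22).

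Over all events, 454 allelic calls in spleen became 784 with events near a PSI of 0 or 1 left out, which tests 4914 events in place of 21726. In lung 455 became 818 with the replicate block and 769 with that filter. The block took the interaction from 0 calls to 3, none in the 8 genes, and changed no other call of a member than that of the Ptprc 72-bp exon. With replicate numbers as a block, spleen against lung kept 3 member calls and 7 genes in TPM. Scaling the TPM libraries to 1 median moved the median difference of all genes from 0.0694 to 0.113 against lung and from 0.172 to -0.322 against the 6 other tissues, and the members called stayed at 7 and 8. A negative binomial count test was not run, because the deposited cells hold lists. The prior form used first was added after seeing the data and gave the same numbers of member calls.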
